A study of Bos taurus with 4 samples.

Results

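Complex I (NADH:ubiquinone oxidoreductase) was examined here through every probe of a bovine oligonucleotide array whose gene symbol starts with NDUF. The symbol rule gave 85 probes of 43 genes out of 51282 probes carrying 32429 gene names. Of these, 80 probes represented 39 subunit genes (NDUFA, NDUFB, NDUFC, NDUFS and NDUFV) and 5 probes represented 4 assembly factors (NDUFAF1 to NDUFAF4). The samples were spermatozoa of Murrah buffalo breeding bulls that the study had rated as high- or low-fertile from field conception rates, high meaning at least 1 SD above and low at least 1 SD below the mean of the bulls evaluated. Each group was represented by 2 RNA pools, each pool holding equal amounts of RNA from 2 bulls, so that 4 arrays stood for 8 bulls. The spermatozoa had been selected on Percoll, a density gradient used to separate sperm from other cells of the ejaculate. All bulls were untreated as far as the labels tell, and their ages were not given in the sources used here. The comparison asked which transcripts differed between spermatozoa of low- and high-fertile bulls. With 2 pools a group, an exact permutation test of a single value cannot go below p = 0.333 (two-sided), so the tests below rest on limma, which borrows the spread of all tested probes. The p-values measure the spread between pools and not that between single bulls.

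Complex I is the entry point of the mitochondrial respiratory chain. It takes electrons from NADH, passes them through a flavin and a series of iron-sulfur clusters to ubiquinone, and pumps protons across the inner membrane. The mammalian enzyme is L-shaped, with a peripheral arm that reaches into the matrix and carries the electron-transfer subunits, and a membrane arm that carries the proton pumps. The core subunits carry the catalysis and are conserved from bacteria to mammals. The accessory subunits surround the core and stabilise it, and the assembly factors help to build the enzyme without remaining in it. In spermatozoa the mitochondria are packed in the midpiece of the flagellum, where respiration supplies part of the ATP used for motility. The nuclear NDUF genes are transcribed before the spermatid nucleus condenses, so that the transcripts measured in spermatozoa are largely retained RNA.

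The probes that carried the results are shown here because every value below is the hybridisation of buffalo RNA to one of these cattle sequences. Each is given 5′ to 3′ in the sense of the transcript, as the array files list it, with its position on the Btau_3.1 cattle assembly from the same files. Capitals mark the first stop codon of the reading frame with the longest run free of stops from the start of the probe, and a probe with no capitals holds a frame without any stop. The 6 probes were chosen among those called between the groups and, for NDUFS4, because it had a log2 difference beyond 1 in size. The NDUFB1 probe (chr21:57297836-57298839, minus strand), the NDUFA1 probe (101402 to 102759 of an unplaced scaffold, plus strand) and the NDUFA5 probe (chr4:90902071-90907797, minus strand) span more genome than their own length, which places each across an exon junction. The NDUFV2 probe (chr24:43029739-43029798, plus strand), the NDUFV1 probe (chr29:47426768-47426827, plus strand) and the NDUFS4 probe (chr20:27137290-27137349, minus strand) each lie in 1 unbroken stretch.
NDUFB1: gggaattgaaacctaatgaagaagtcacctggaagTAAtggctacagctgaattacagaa
NDUFA1: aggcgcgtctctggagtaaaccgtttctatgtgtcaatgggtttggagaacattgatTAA
NDUFV2: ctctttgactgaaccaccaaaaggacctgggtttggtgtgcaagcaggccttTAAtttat
NDUFA5: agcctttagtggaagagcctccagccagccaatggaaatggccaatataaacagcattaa
NDUFV1: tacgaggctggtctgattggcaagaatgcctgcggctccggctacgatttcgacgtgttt
NDUFS4: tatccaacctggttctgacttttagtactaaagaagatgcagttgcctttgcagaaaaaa

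The second low-fertile array had 13033 of 51282 probes well above background (the scanner software's call on a spot), against 23228 to 25642 on the other arrays. Pearson's r over the 12552 probes above background on all 4 arrays was 0.98 within each group and 0.92 to 0.93 between groups. Of 15 sperm and late spermatid markers, PRM1, TNP1 and ODF1 were above background on all 4 arrays and AKAP4, HSPA1L, SMCP and LDHC on none. Of 9 leukocyte markers, 4 were above background on all 4 arrays (PTPRC, CD14, CD4 and CD68) and 2 (CD3E and CD8A) on none. The summed leukocyte marker level, in multiples of each array's 75th percentile, was 231 and 239.8 in the high-fertile pools, against 349.8 and 383 in the low-fertile pools. PTPRC (CD45) alone gave 190.2 and 192 of these sums against 310.6 and 348.8 and was called higher (limma adjusted p = 0.016), and the other 8 leukocyte markers summed to 41.2 and 47.8 against 39.2 and 34.2. The sperm markers summed to 20.2 and 16.2 in each group, with PRM1 called higher in low-fertile bulls (log2 difference 0.67, limma adjusted p = 0.0231) and none of the other 4 tested called. Summed levels of the other lists were 23.9 and 24.2 against 25.3 and 28.4 for genital epithelium (5 of 7 above background on all arrays, EPCAM and CDH1 on none), and 16.3 and 19.4 against 18.7 and 21.0 for Sertoli and Leydig cells (4 of 5), where STAR was called higher (log2 difference 0.79, limma adjusted p = 0.0212). Red cell markers summed to 5.01 and 8.22 against 6.11 and 6.96 (1 of 4, HBA), with HBB called higher (log2 difference 1.24, limma adjusted p = 0.0118), and earlier germ cell markers to 0.519 and 0.823 against 0.765 and 0.869 (0 of 4). The part of other cells in the complex I results was not tested, and in these bulk samples fewer cells of a type and less RNA per cell cannot be told apart.

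Of the 85 complex I probes, 44 were above background on no array and 18 on all 4. The number above background was 34 and 35 on the high-fertile arrays, 39 on the first low-fertile array and 18 on the second. A probe was tested when the high-fertile pair, the low-fertile pair or both measured it above background, which left 32 probes of 26 genes, 25 of them subunits and 1 an assembly factor. Of these probes, 14 passed through the high-fertile pair alone, so a lower value in the low-fertile pools was partly built into their selection. A gene was read from its brightest tested probe. The 17 genes without a tested probe were NDUFS3 among the core subunits, NDUFA9 and NDUFS6 of the peripheral arm, NDUFA8, NDUFA10, NDUFB2, NDUFB3, NDUFB4, NDUFB5, NDUFB6, NDUFB9, NDUFB10, NDUFC2 and NDUFS5 of the membrane arm, and the assembly factors NDUFAF1, NDUFAF2 and NDUFAF4. Nothing is said here of a difference in these genes.

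In low-fertile bulls, 6 of the 25 tested subunit genes were downregulated and 0 were upregulated at a Benjamini-Hochberg adjusted p under 0.05 (limma, two-sided, adjusted over all 21033 tested probes). Over all 16685 tested genes, 16.6% were called lower and 9.53% higher. The 6 genes were NDUFB1, NDUFA4, NDUFA1, NDUFA5, NDUFA2 and NDUFV2. At an unadjusted p under 0.05, limma marked 9 of the 25 as lower and 3 as higher, beside 22.9% and 18.1% of all tested genes. The methods' t-test called 0 after adjustment, and before it marked 6 as lower and 2 as higher, beside 16.3% and 12.7% of all tested genes. The fitted difference was below 0 in 20 of the 25 subunit genes, beside 8204 of all 16685 tested genes. Its median was -0.38 on the log2 scale against 0.01 over all tested genes. The low-fertile values were both under the high-fertile ones in 12 of the 25 (34.7% of all tested genes) and both over them in 4 (34.8%).

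The count differed between genes whose probe was above background on all 4 arrays and the others, a split in which the low-fertile values themselves take part. Of the 25 subunit genes, 14 had a brightest probe above background on all 4 arrays, and 2 of these, NDUFA1 and NDUFV2, were called lower and 0 higher, against 9.32% lower and 13.2% higher among all such genes. A fit on such probes alone called the same 2 lower and also NDUFA11, NDUFS7 and NDUFV1 higher (limma adjusted p = 0.0324, 0.0352 and 0.0461), where 12.3% of all genes were lower and 21.6% higher. The median difference of the 14 was -0.12, against 0.15 over all such genes, of which 46.2% had both low-fertile values over the high-fertile ones and 24.3% both under them. The other 11 genes passed through the high-fertile pair alone and held the other 4 calls, and among all genes not above background on every array 29.2% were called lower and 3.18% higher.

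**Figure D1:**
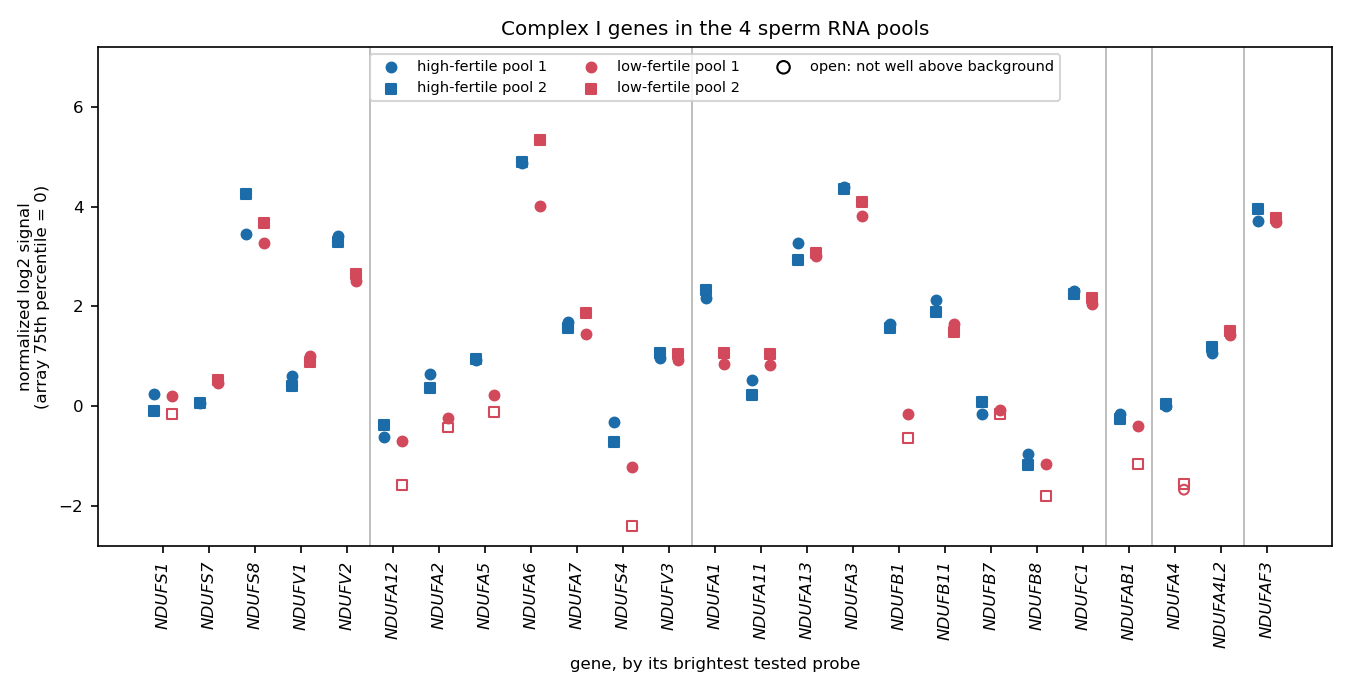
Normalized log2 signal (each array's 75th percentile at 0) of the brightest tested probe of 25 complex I genes, with 1 point per RNA pool; blue marks high-fertile and red low-fertile pools, open points were not well above background, and vertical lines separate core, peripheral arm, membrane arm, acyl carrier, NDUFA4 with NDUFA4L2, and assembly factor. The red points of NDUFB1, NDUFA1 and NDUFA4 lie at least 1.1 log2 units below the blue ones, and those of NDUFA6 lie on both sides of them.

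Among the core subunits, 6 of 7 genes were tested, 1 was called lower and 0 higher (16.6% and 9.53% of all tested genes), and the median difference was -0.13. Of the 6, 2 passed through the high-fertile pair alone, and the median of the other 4 was 0.03. NDUFV2, an iron-sulfur protein that pairs with NDUFV1 at the NADH-oxidising tip of the peripheral arm, had normalized log2 signals of 3.40 and 3.28 in the high-fertile pools, against 2.50 and 2.65 in the low-fertile pools. All 4 arrays measured it above background and the groups did not overlap. The NDUFV2 signal in low-fertile bulls was 58.7% of that in high-fertile bulls (log2 difference -0.77, SE 0.150, limma adjusted p = 0.0178). A second NDUFV2 probe, which lies across an exon junction upstream, gave -0.37 (95% interval -0.73 to 0.00, limma adjusted p = 0.122).

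NDUFV1, the subunit that binds FMN and NADH, was measured by 2 probes above background on all 4 arrays. The brighter NDUFV1 probe read 0.61 and 0.40 in the high-fertile pools, against 1.01 and 0.89 in the low-fertile pools, and its log2 difference of 0.45 did not pass the threshold (95% interval 0.05 to 0.84, limma adjusted p = 0.0893). The other NDUFV1 probe, printed above, read 0.25 and -0.18 against 0.67 and 0.97. It was called higher in low-fertile bulls (log2 difference 0.79, SE 0.212, limma adjusted p = 0.0456), and it was the only 1 of the 32 complex I probes called in that direction, where 9.22% of all tested probes were (17.6% were called lower and 26.8% in either direction). Both NDUFV1 probes thus differed from the called NDUFV2 probe in sign, within the pair of proteins that forms the NADH-oxidising tip.

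NDUFS7, which carries the last iron-sulfur cluster before ubiquinone, read 0.06 and 0.06 in the high-fertile pools, against 0.47 and 0.52 in the low-fertile pools. The groups did not overlap, and the log2 difference of 0.44 (95% interval 0.09 to 0.79) had a limma adjusted p of 0.0708. NDUFS1, the largest subunit and a carrier of several iron-sulfur clusters, read 0.25 and -0.10 against 0.21 and -0.16, a difference of -0.05 (95% interval -0.56 to 0.47). The groups overlapped in NDUFS1, which was not above background in the second low-fertile pool.

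The brighter NDUFS8 probe, for another iron-sulfur protein of the path to ubiquinone, read 3.46 and 4.25 in the high-fertile pools, against 3.27 and 3.67 in the low-fertile pools. Its difference of -0.38 had a 95% interval from -1.13 to 0.37, and the other NDUFS8 probe gave 0.19 (95% interval -0.19 to 0.56). NDUFS3, a core subunit of the peripheral arm, read -0.96 and -0.98 against -1.33 and -1.42 on its brighter probe, not above background on any array, and was not tested.

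In the peripheral arm, 7 of 9 accessory subunits were tested, 2 were called lower and 0 higher (16.6% and 9.53% of all tested genes), and the median difference was -0.64. Of the 7, 4 passed through the high-fertile pair alone, and the median of the other 3 was -0.03. NDUFA5 read 0.92 and 0.94 in the high-fertile pools, against 0.22 and -0.12 in the low-fertile pools. Its signal in low-fertile bulls was 54.4% of that in high-fertile bulls (log2 difference -0.88, SE 0.173, limma adjusted p = 0.0184). NDUFA2, a small thioredoxin-like subunit, read 0.65 and 0.36 against -0.23 and -0.43, which was 56.03% of the high-fertile signal (log2 difference -0.84, SE 0.175, limma adjusted p = 0.0219). The second low-fertile pool was not above background for NDUFA5 or NDUFA2, and the groups did not overlap in either gene.

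NDUFS4, a subunit needed for a stable NADH-oxidising module, read -0.33 and -0.72 in the high-fertile pools, against -1.23 and -2.41 in the low-fertile pools. The lowest value belonged to the second low-fertile pool, where the probe was not above background. Its log2 difference was as large as that of NDUFA1, but its standard error of 0.399 was wider (log2 difference -1.29, 95% interval -2.29 to -0.30, limma adjusted p = 0.0642). Without low-fertile pool 1 the NDUFS4 difference was -1.88 with a limma adjusted p of 0.00819, and with the replicate number as a block it was -1.29 with a limma adjusted p of 0.012. Without low-fertile pool 2 it was -0.70 (limma adjusted p = 0.105), after correction for probe GC content it was -0.59 (limma adjusted p = 0.323), and it was not called without either high-fertile pool.

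The other peripheral subunits that were tested, NDUFA6, NDUFA7, NDUFA12 and NDUFV3, had differences from -0.64 to 0.04, none of them called. NDUFA6 belongs to the LYR-motif proteins and sits beside the acyl carrier subunit. It had the widest gap between low-fertile pools among these genes, reading 4.88 and 4.89 in the high-fertile pools, against 4.01 and 5.33 in the low-fertile pools. Without low-fertile pool 2 the NDUFA6 difference was -0.88 (limma adjusted p = 0.0315), and without low-fertile pool 1 it was 0.44, so that each low-fertile pool gave a direction of its own. This NDUFA6 probe (chr5:120201031-120201090, minus strand) was designed on an expressed sequence tag and shares 20 bases with 1 probe of another gene name. The NDUFA6 probe on the RefSeq transcript (chr5:120203333-120203392, minus strand) read -1.58 and -1.15 against -0.83 and -1.42 and was above background on 2 of the 4 arrays. Whether the brighter probe reads NDUFA6 was not tested.

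In the membrane arm, 9 of 20 accessory subunits were tested, 2 were called lower and 0 higher (16.6% and 9.53% of all tested genes), and the median difference was -0.40. Of the 9, 3 passed through the high-fertile pair alone, and the median of the other 6 was -0.30. NDUFB1, a small subunit with a single membrane helix, was called lower. It read 1.64 and 1.56 in the high-fertile pools, against -0.17 and -0.64 in the low-fertile pools, where only the first was above background. The NDUFB1 signal in low-fertile bulls was 24.9% of that in high-fertile bulls (log2 difference -2.005, SE 0.201, limma adjusted p = 0.00327). A second probe named NDUFB1 lies on the opposite strand and was above background on no array.

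NDUFA1, an X-linked subunit of the membrane arm that is needed for assembly, was the only complex I gene with 2 probes called lower. Its brighter probe read 2.17 and 2.33 in the high-fertile pools, against 0.85 and 1.06 in the low-fertile pools, 40.7% of the high-fertile signal (log2 difference -1.30, SE 0.160, limma adjusted p = 0.00507). The other tested NDUFA1 probe, further downstream, was at 46.5% (log2 difference -1.10, SE 0.159, limma adjusted p = 0.00744). Both NDUFA1 probes were above background on all 4 arrays. A further NDUFA1 probe was above background on no array.

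The probes of NDUFA11 and NDUFA3 differed in sign within each gene. NDUFA11, a subunit with several membrane helices, had a brighter probe at 0.52 and 0.22 in the high-fertile pools, against 0.82 and 1.04 in the low-fertile pools (log2 difference 0.56, 95% interval 0.11 to 1.00, limma adjusted p = 0.0701), and another probe at -0.25 (95% interval -0.82 to 0.33). That other NDUFA11 probe was designed on an expressed sequence tag and was not above background in the second low-fertile pool. NDUFA3 had a brighter probe at 4.39 and 4.35 against 3.81 and 4.09 (log2 difference -0.42, 95% interval -0.83 to -0.01, limma adjusted p = 0.112), and another at 0.32 (95% interval -0.14 to 0.79). The brighter NDUFA3 probe is placed on chromosome 5 by the array files and the other 3 NDUFA3 probes on chromosome 18. The same files list it on the RefSeq transcript of NDUFA3. It shares 19 bases, with 0 differences, with an NDUFA3 probe on chromosome 18. Whether it also reads another transcript was not tested. With NDUFS8, this made 3 of the 6 genes with 2 tested probes in which the probes disagreed in sign.

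The remaining tested subunits of the membrane arm were NDUFA13, NDUFB7, NDUFB8, NDUFB11 and NDUFC1, with differences from -0.44 (NDUFB11) to -0.06 (NDUFA13), none of them called. The NDUFC1 value (-0.18) also comes from a probe on an expressed sequence tag, while the NDUFC1 probe on the RefSeq transcript was above background on no array, and whether the former reads NDUFC1 was not tested. NDUFAB1, the mitochondrial acyl carrier protein that is present in both arms, read -0.17 and -0.26 in the high-fertile pools, against -0.39 and -1.15 in the low-fertile pools (log2 difference -0.56, 95% interval -1.23 to 0.11, limma adjusted p = 0.177).

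NDUFA4 was named as a complex I subunit and is now placed in complex IV (cytochrome c oxidase). It read 0.00 and 0.05 in the high-fertile pools, against -1.68 and -1.56 in the low-fertile pools, where neither array measured it above background. The fitted NDUFA4 signal was 3.12-fold higher in high-fertile bulls (log2 difference -1.64, SE 0.143, limma adjusted p = 0.00271). Because the low-fertile side was not above background, this fold is an estimate and not a lower limit. The log2 difference was -0.94 after correction for probe GC content and -0.34 with the normexp background correction. NDUFA4L2, a paralog known as a target of the hypoxia-inducible factor, read 1.07 and 1.19 against 1.43 and 1.504 (log2 difference 0.34, 95% interval -0.02 to 0.70, limma adjusted p = 0.138).

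The 4 NDUFA4 probes gave different signal levels, and the cause was not tested. The tested probe (chr4:19458080-19458136, minus strand) shares 59 positions with another NDUFA4 probe from which it differs by T17C, A30C and T46C, counted from the 5′ end of the tested probe, with its base first. The tested probe was above background on both high-fertile arrays, and the other on none (-3.17 and -3.06 in the high-fertile pools). A further NDUFA4 probe that shares 53 positions with the tested one and has 0 differences there was above background on 1 high-fertile array. Positions 15 to 44 of the 2 differing probes are set side by side, with capitals at the bases that differ.
tested NDUFA4 probe: tgTggtggggtttacActgatgaataaata
other NDUFA4 probe: tgCggtggggtttacCctgatgaataaata

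**Figure D2:**
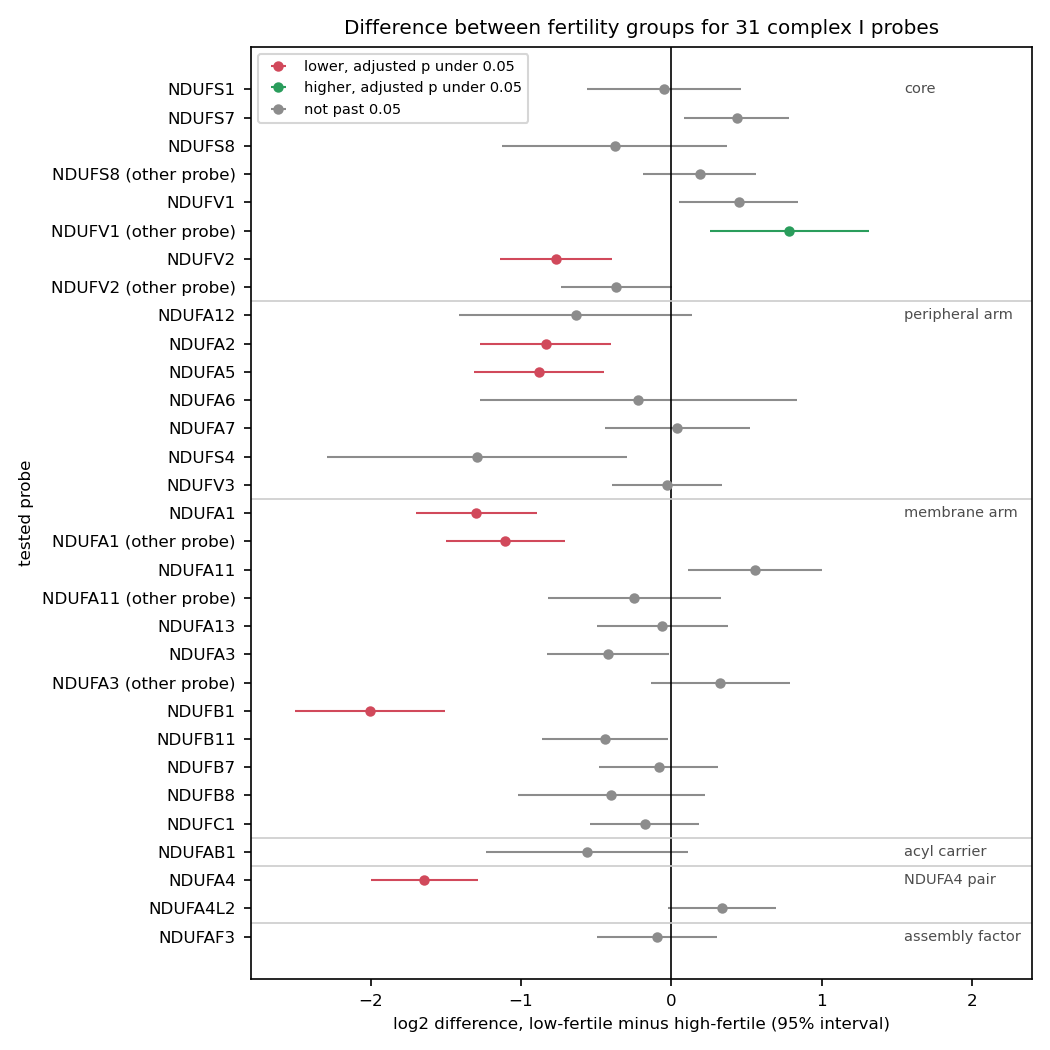
Log2 difference (low-fertile minus high-fertile) with its 95% interval from limma for 31 tested complex I probes, grouped by role; red probes were called lower, the green probe higher, and grey probes did not pass an adjusted p of 0.05. The 7 red probes lie between -2.005 and -0.77, and the green NDUFV1 probe at 0.79.

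Of the assembly factors, 1 of 4 genes was tested and 0 were called, where 16.6% of all tested genes were called lower and 9.53% higher. NDUFAF3, which acts early in the assembly of the ubiquinone-reducing module, read 3.71 and 3.95 in the high-fertile pools, against 3.69 and 3.78 in the low-fertile pools. The log2 difference was -0.10 with a 95% interval from -0.49 to 0.30 (SE 0.159, limma adjusted p = 0.681, unadjusted p = 0.573), and the groups overlapped. NDUFAF1, also known as CIA30 and needed for the membrane arm, read -3.20 and -2.52 against -3.31 and -2.10 and was above background on no array. NDUFAF2, a paralog of NDUFA12 that is present on a late assembly intermediate, read -3.13 and -2.51 against -3.21 and -2.01 on its brighter probe, also above background on none. NDUFAF4, which works together with NDUFAF3 (-3.19 and -3.22 against -3.24 and -2.30), was above background on none either. With a single gene tested, assembly factors were not compared with subunits as a group.

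The symbol rule missed 3 NDUFAF genes that the array lists under older names. C14H8orf38, which RefSeq now names NDUFAF6, was above background on all 4 arrays at 2.87 and 3.20 in the high-fertile pools, against 2.14 and 2.23 in the low-fertile pools, and was called lower (log2 difference -0.85, SE 0.172, limma adjusted p = 0.0200). C11H2orf56 (NDUFAF7) and C13H20orf7 (NDUFAF5) were above background on no array. Of 14 names of assembly factors with other symbols, 6 were tested and 0 called in either direction by limma, beside 26.1% of all tested genes. ACAD9, ECSIT, FOXRED1 and C4H7orf44 (COA1) had differences from 0.27 to 0.57, and AIFM1 and ATP5SL differences of -0.28 and -0.37.

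The mitochondrial genome encodes the other 7 core subunits, and 6 of them had a probe on the array. ND5, a proton-pumping subunit, read -0.10 and -0.01 in the high-fertile pools, against -0.63 and -0.58 in the low-fertile pools and was called lower (log2 difference -0.55, SE 0.142, limma adjusted p = 0.0403). ND1, at the junction of the arms, had a difference of -0.16 and was not called. ND5 and ND1 both passed the filter through the high-fertile pair alone, which favoured a lower value in the low-fertile pools. ND2, ND4, ND4L and ND6 were not tested.

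The other respiratory complexes, read by the same rule, are given only for scale. Complex II had 1 of 4 tested genes called lower, complex III 1 of 9 lower and 1 higher, the complex IV symbols 6 of 15 lower, and the ATP synthase symbols 5 of 12 lower, beside 16.6% lower and 9.53% higher over all tested genes. Among the called complex IV symbols, COX4NB is now named EMC8 and is no subunit of that complex, and the 12 ATP synthase symbols include ATP5SL, counted above with the assembly factors (not called). Their medians were -0.24, -0.06, -0.42 and -0.46, beside -0.38 for the complex I subunits without NDUFA4 and NDUFA4L2 (5 of 23 called lower). Of these 23, 10 passed through the high-fertile pair alone. With genes above background on all 4 arrays only, the medians were -0.26, -0.05, -0.75 and -0.37, beside -0.18 for complex I. These differences between complexes were not tested.

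GC content, a property that the symbol rule did not use, was low in the complex I probes called lower, as in all tested probes called lower. The 7 probes called lower held 36.7% to 45% GC (median 43.3%), the probe called higher held 55.0%, and the 24 probes not called had a median of 53.3%. Over all tested probes the medians were 41.7% for those called lower, 55% for those called higher and 45% for those not called. Across the 32 tested complex I probes, Pearson's r between GC content and log2 difference was 0.69, and across all 21033 tested probes it was 0.44. These are correlations across probes of the same 4 arrays and probes are not independent replicates. When each array was corrected for probe GC content, 6 subunit genes were again called lower, with NDUFB11 in place of NDUFA2, and 11.3% of all genes were then lower. NDUFA2 was at -0.60 (limma adjusted p = 0.067). The corrected differences were -1.54 for NDUFB1, -1.06 for NDUFA1, -0.94 for NDUFA4, -0.77 for NDUFA5 and -0.66 for NDUFV2. NDUFA11, not called in the reported fit, went from 0.56 to 0.27 (limma adjusted p = 0.278).

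**Figure D3:**
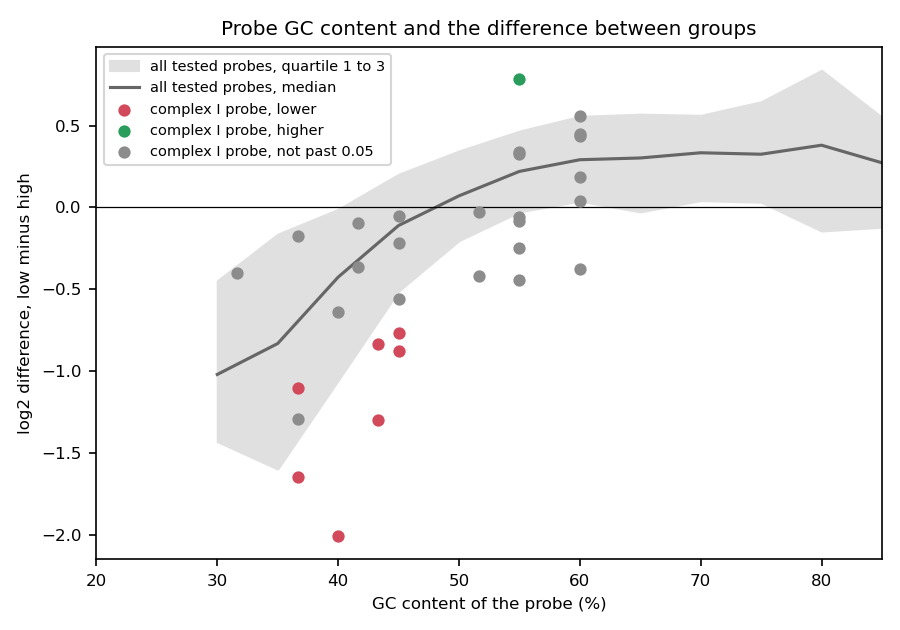
Log2 difference (low-fertile minus high-fertile) against probe GC content in percent for 31 tested complex I probes (points coloured by call), over the median and the quartiles of all tested probes in bins of 5% GC. All red points lie at or below 45% GC, and the grey line is below 0 there and above 0 from 50% GC on.

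The 6 called subunit genes kept a negative difference under every alternative that could be computed for them, but not their call. NDUFB1 and NDUFA4 were called under 13 of 15 alternatives and NDUFA1 under 14 of 16, the exceptions being the fit without a filter and the methods' t-test. NDUFV2 was called under 10 of 16, and NDUFA2 and NDUFA5 under 9 of 15 each. The alternative missing for NDUFB1, NDUFA4, NDUFA5 and NDUFA2 was the fit on probes above background on all 4 arrays, which theirs were not. Fits that left out a pool reused the same tested probes, so the selection through the high-fertile pair stayed in them. Without any 1 of the 4 pools in turn, NDUFB1, NDUFA4 and NDUFA1 were called every time. NDUFA5 and NDUFA2 were called only without low-fertile pool 1, and NDUFV2 only without low-fertile pool 2. Their adjusted p-values in the other 3 fits ranged from 0.0532 to 0.0844 for NDUFA5, from 0.0506 to 0.104 for NDUFA2 and from 0.052 to 0.0922 for NDUFV2 (limma). The normexp background correction, which adds an offset of 50 and so compresses faint probes, brought NDUFA4 to -0.34 and NDUFB1 to -0.89.

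**Figure D4:**
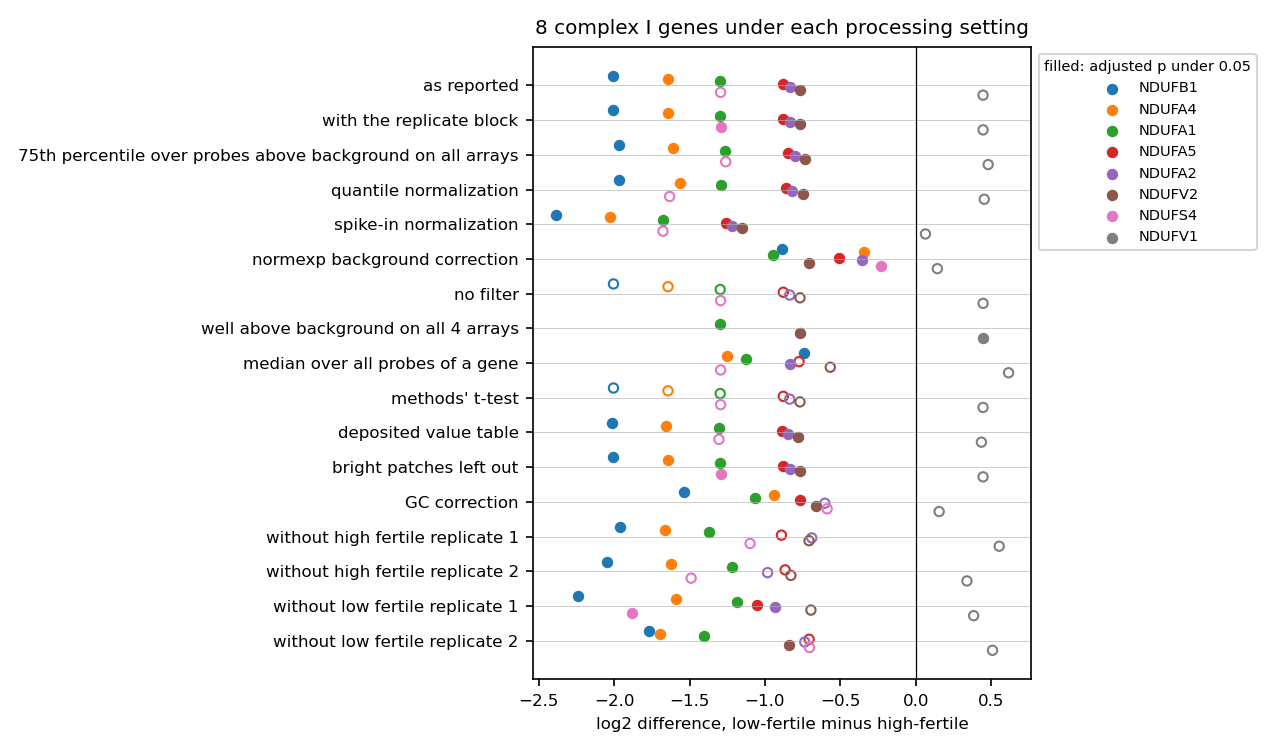
Log2 difference (low-fertile minus high-fertile) of 8 complex I genes under the reported processing and each alternative, with filled points where the limma or t-test adjusted p was under 0.05 and open points where it was not. All 6 called genes stay left of 0 in each row, NDUFS4 is filled in 4 rows, and the brightest NDUFV1 probe stays right of 0.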

How the data were processed

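RNA of the 4 pools was labelled with Cy3 from an oligo-dT primer and hybridised to a 1-colour Agilent 8x60k cattle array. Per the file headers, the deposited scanner intensity values came from Agilent Feature Extraction (version 11.5.1.1), with probes placed on Btau_3.1. The authors also deposited a table of log2 values after a 75th percentile shift. Here log2 of the background-subtracted processed signal minus each array's 75th percentile was used, as in the study's methods. Control probes and outlier spots were left out and spots of 1 probe averaged. Probes that the high-fertile pair, the low-fertile pair or both measured well above background were tested with limma (version 3.58.1, R 4.3.3; lmFit and eBayes, prior degrees of freedom 3.52, two-sided, Benjamini-Hochberg over all 21033 tested probes). The fit was tested on simulated data. No complex I value was missing or saturated.

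Core subunits, assembly factors, called accessory subunits, those with a log2 difference of at least 1 in size and those whose tested probes disagree in sign are named with their values, except that the values of 1 core subunit and 1 leukocyte marker are not reported here. That subunit stays in the counts and medians, and not in the plots. Members and gene lists were chosen with earlier results of these data known. Of the 85 probes, 71 matched RefSeq (ARS-UCD2.0) by accession, all with the same symbol. Replicate numbers did not pair the pools (r = 0.0055 between the differences within groups, over 21024 probes). Labels give cattle as the organism and buffalo in the sample descriptions, and mismatches between buffalo RNA and cattle probes were not tested. Precision is limited by the number of arrays. Alternatives covered normalization, background, filter, probe choice, test, value table, bright patches on the slide, GC content, the replicate block and each pool left out.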

Additional observations from a re-analysis of the deposited data

How the results depend on the processing

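The number of complex I subunit genes called lower (6) was 0 without a filter (10 in either direction at an unadjusted p under 0.05), 0 with the methods' t-test (6 lower and 2 higher unadjusted), 2 with probes above background on all 4 arrays, and 3 to 8 without 1 pool. Of all genes in these settings, 0% were lower without a filter and with the t-test, 12.3% (21.6% higher) with probes above background on all arrays and 9.13% to 16.0% without 1 pool. It was 3 without high-fertile pool 1 or without high-fertile pool 2. The number called higher (0) was 1 with normexp (14.2% of all genes), 1 with gene medians (a gene read as the median of its probes, 4.82%), and 3 with probes above background on all arrays. With the replicate block 7 were lower and 0 higher, and the block changed no other call of a subunit than that of NDUFS4. The subunit median (-0.38) was -0.24 with quantile normalization, -0.76 with spike-in alignment, -0.20 with normexp, -0.15 without a filter, -0.12 with probes above background on all arrays, -0.084 with gene medians, -0.28 after GC correction and -0.32 to -0.19 without 1 pool. The assembly factor median (-0.10) was -0.48 with spike-in alignment, 0.18 without a filter, 0.26 after GC correction and -0.22 to 0.026 without 1 pool. Spike-in alignment moved the median of all genes to -0.37 and called 9 of the 25 subunits and 32.2% of all genes lower, and 91.9% of all calls were then lower against 63.5% in the reported fit and 36.3% with probes above background on all arrays.

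No called subunit gene reversed, and these uncalled genes did. After GC correction NDUFAF3 was 0.26, NDUFB8 0.66, NDUFC1 0.53, NDUFA7 -0.25 and NDUFS1 0.059. With gene medians NDUFA13 was 0.98 (limma adjusted p = 0.0277), NDUFA3 0.40, NDUFS1 0.16, NDUFA6 0.011 and NDUFV3 0.0095. With normexp NDUFA7 was -0.020, NDUFS1 0.016 and NDUFV3 0.022. With spike-in alignment NDUFA4L2 was -0.044 and NDUFA7 -0.34, and with the percentile over probes above background on all arrays NDUFV3 was 0.0057. Without 1 pool the range was -0.23 to 0.11 for NDUFA13, -0.88 to 0.44 for NDUFA6, -0.17 to 0.26 for NDUFA7, -0.22 to 0.026 for NDUFAF3, -0.21 to 0.037 for NDUFB7, -0.23 to 0.14 for NDUFS1, -0.77 to 0.017 for NDUFS8 and -0.084 to 0.028 for NDUFV3. The cause was not tested in any of these, except that a filter on all arrays tests fewer genes. Faint signal limits 53 of the 85 probes, which were not tested, and leaving out a pool leaves 1 sample in its group, assumed to vary like the other group.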
